A study of Saccharomyces cerevisiae with 4 samples.

Results

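Subcluster G.2 is a group of 123 Guanine-treated yeast cells. The study's authors clustered the 258 cells of the Guanine library by their gene expression with SC3 and split them into G.1, with 135 cells, and G.2, and the cells described here were chosen by that label. They are 123 of 844 cells in the 4 libraries. Because the label was made from the counts of these same cells, every difference between G.2 and G.1 is given as a description, with no test, and nothing is supported by it. All cells were haploid BY4741 (*MATa his3Δ1 leu2Δ0 met15Δ0 ura3Δ0*), a laboratory strain that needs histidine, leucine, methionine and uracil, grown for 18 h in complete supplement medium (CSM) with 2% glucose. The 4 cultures held 10 µM DMSO (D), 10 µM guanine with no DMSO (G), 10 µM mycophenolic acid (MPA) with DMSO (M), or MPA, guanine and DMSO together (MG), and each gave 1 library. MPA blocks IMP dehydrogenase, the step that commits IMP to GMP, and guanine lets cells make GMP by another route. One library per condition means that no value has a replicate. The intervals below are exact 95% intervals of counting error only, Poisson for a level and binomial for a ratio of levels.

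Yeast makes all of its amino acids, and most of the enzymes are under general amino acid control. When an amino acid is scarce, the kinase Gcn2 lowers translation in general and raises that of the activator Gcn4, which turns on genes for many pathways together, those of amino acids that are not scarce included. Gcn4 binds DNA at a short site with the core TGACTC. Each pathway also has control of its own, such as repression of arginine enzymes by arginine and the activation of leucine enzymes by Leu3 and of lysine enzymes by Lys14.

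The Gcn4 core lies before many of the genes that stand high in G.2. The following stretches of 30 bases, from the R64 reference genome of RefSeq, show it in capitals, with the flanks in lower case, for genes of 4 amino acid pathways, for 2 genes outside them, and for the marker *ARG1*, whose matches lie farther from the gene and of which the one with the longer form is shown. Each is written 5′ to 3′ on the strand that reads TGACTC, and distances count from the start codon to the nearest base of the core.
HIS4: acccatgcacagTGACTCacgtttttttat
ARG4: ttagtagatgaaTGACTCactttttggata
ILV5: gatgacctaactTGACTCaatggcttttac
LEU4: cttacgtgtaagTGACTCagttctttcaaa
LYS1: aggatgactttaTGACTCtttgtcgctgaa
TMT1: tgttgatgttcaTGACTCacagtaatatcc
BNA1: aatatgtttcagTGACTCacaatttatcct
ARG1: gtgattttttagTGACTCatgtcgcatttg
These stretches are chrIII:68515-68544 (minus strand, 194 bases before *HIS4*), chrVIII:141564-141593 (minus, 174 before *ARG4*), chrXII:839376-839405 (minus, 135 before *ILV5*) and chrXIV:426838-426867 (minus, 96 before *LEU4*). The others are chrIX:420853-420882 (plus, 129 before *LYS1*), chrV:540516-540545 (minus, 165 before *TMT1*), chrX:471775-471804 (plus, 116 before *BNA1*) and chrXV:218854-218883 (plus, 340 before *ARG1*). All lie before the coding sequence of the named gene. In 7 of the 8 the core is followed by A, so that the longer form TGACTCA is there. The exception is *LYS1*, which has another match, with the longer form, 244 bases before its start. The stretches were picked from genes that hold the core, so this count is not a share of any set. Shares over whole sets of genes are given below. Whether Gcn4 acts at these sites in these cells was not tested.

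In yeastDrop-Seq, single cells are broken open in oil droplets, and beads that capture their mRNA tag every molecule with the barcode of its cell and a Unique Molecular Identifier (UMI). Counting UMIs in place of reads removes PCR copies. The G.2 cells held 120378 UMIs, with a median of 934 per cell and a range of 223 to 1823. The G.1 cells held 96390, with a median of 673 and a range of 124 to 1926, so G.2 was sampled more deeply. Levels are summed UMIs scaled to a total of 1000000 (CPM), and a gene was measured where G.1 and G.2 held at least 50 UMIs of it together, which 748 genes did. The 4 libraries shared 0 cell barcodes, and held 102788 to 311199 UMIs. *SAG1*, the MATalpha-specific gene that could be checked, had 0 UMIs in Guanine-treated cells, whereas the a-factor gene *MFA1*, which MATa cells express, had 185 UMIs in G.1 and 155 in G.2. Cells with over 10% of their UMIs on 1 gene were 0 of 123 in G.2, 1 of 135 in G.1 and 7 of 56 in D.2. In the Guanine library 1857 genes were listed at 0, which does not show that their mRNA was missing.

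*ARG1* encodes argininosuccinate synthetase, the step of arginine synthesis before the last. Its level was 3597 CPM (3266 to 3952) in G.2 and 498 CPM in G.1. In the other subclusters it was 1485 CPM in D.2, 151 in D.1, 117 in M.1, 423 in MG.1, 1177 in MG.2 and 611 in MG.3. G.2 thus held the highest level, D.2 and MG.2 followed, and M.1 and D.1 were lowest. The 433 UMIs of *ARG1* in G.2 came from 106 cells, with at most 13 in 1 cell. *ILV5* encodes the acetohydroxyacid reductoisomerase of isoleucine and valine synthesis, and its level was 4901 CPM in G.2, 1899 in G.1, 2698 in D.2, 1297 in D.1 and 733 to 1129 in the 4 subclusters of the libraries with MPA. Its UMIs in G.2 came from 120 of 123 cells. Both genes are among the values that made the label.

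Amino acid synthesis genes took 5.45% of the UMIs of G.2 and 2.23% of those of G.1, or 54528 against 22326 CPM, a log2 ratio of 1.29 (1.22 to 1.36). The list holds 96 genes in 9 pathways. Of these, 55 were measured, and 39 of the 55 were at least 2-fold higher in G.2, 0 were at least 2-fold lower and 16 lay between, with a median log2 ratio of 1.49. Over all 748 measured genes, 99 (13.2%) were at least 2-fold higher, 28 (3.74%) were at least 2-fold lower, and the median was -0.01. Since the cells were clustered on these genes, nothing is read from the difference between the list and all genes. With TMM scaling, which lowers each log2 ratio by 0.14 (a shift of -0.14), the split over all genes was 88 higher and 45 lower. The other 41 listed genes are 28 with 1 to 49 UMIs, 6 listed at 0 in both subclusters and 7, *ARG2*, *HIS5*, *LEU2*, *MET17*, *MET13*, *HOM3* and *GLY1*, that were not analysed here. Of the 28, 23 had a higher CPM in G.2 and 5 a lower one. The share over all genes with 1 to 49 UMIs was not counted, so nothing is read from this split. The minimum fell between *ORT1*, with 49 UMIs, and *TRP2*, with 52. Just inside the 2-fold limit lay *CPA1*, and just outside it *THR1* (0.90) and *LYS21* (0.83). A marker list of G.2 published with these cells holds 33 of the 39.

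**Figure D1:**
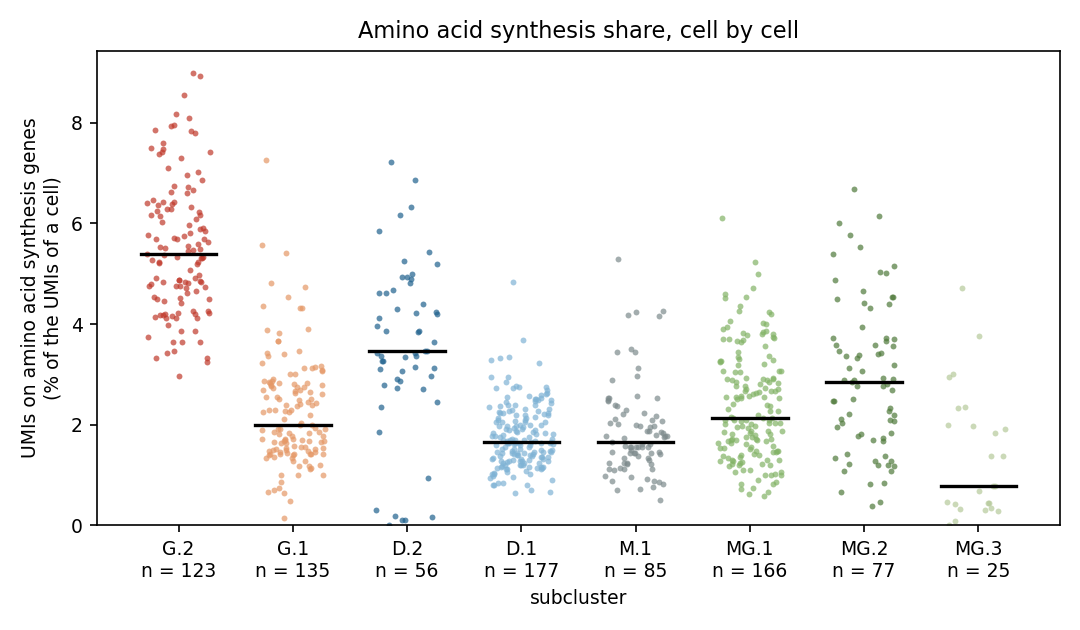
Each point is a cell, the y axis is the percentage of its UMIs on amino acid synthesis genes, and the black line is the median of the subcluster, with the number of cells under its name. The G.2 cells lie between 2.96% and 8.98% with a median of 5.39%, and the G.1 cells have a median of 2.00%.

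The shift was spread over the cells. The lowest, median and highest share of UMIs on amino acid synthesis genes was 2.96%, 5.39% and 8.98% in G.2, and 0.155%, 2.00% and 7.26% in G.1. The subclusters overlapped: 108 of 135 G.1 cells lay below the lowest G.2 cell, 17 of 123 G.2 cells lay above the highest G.1 cell, and 3 G.1 cells lay above the G.2 median. After each cell was thinned to 400 UMIs, which left out 6 G.2 cells and 27 G.1 cells, the median was 21 UMIs in G.2 and 8 in G.1. Cells were also grouped by depth, and since the labels come from the same counts, these shares are a description. Cells from 700 up to 1000 UMIs had 5.74% in G.2 and 2.11% in G.1, those from 400 up to 700 had 5.62% and 2.14%, and those of at least 1000 had 5.28% and 2.35%. The thinned cells of G.2 held UMIs of a median of 8 of the 9 pathways, those of D.2 of 7, those of G.1 of 5 and those of D.1 of 4.

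Within G.2 the rank correlations between pathways over cells were low, in counts too sparse to show whether the pathways moved together. Spearman's rho between the summed UMIs of a pair of pathways, over 117 thinned cells, had a median of 0.06 and a range of -0.12 to 0.24 over the 36 pairs. In G.1 the median was 0.04, and over G.1 and G.2 together it was 0.24. The cells share a library and a median of 8 to 21 UMIs is spread over 9 pathways, so values this small in such sparse counts are no finding. The variance of the thinned sum was 1.74 times its mean in G.2, 1.83 times in G.1 and 4.46 times in all Guanine-treated cells.

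A clustering of the 4 libraries together, also by the authors, put 121 of the 123 G.2 cells (98.4%) in its cluster 2. Only 7 of 135 G.1 cells were there, with a median share of 3.66% against 1.92% in the 119 G.1 cells of cluster 1. It also held 33 of 56 D.2 cells, with a median of 4.24%, against 3.02% in the 14 D.2 cells of cluster 1. In MPA-treated cells it held 3 of 85, with a median of 4.24%. In MG.1 it held 17 of 166, with a median of 3.72%, and in MG.2 it held 9 of 77, with 5.01%. It also held 2 of 25 MG.3 cells, with a median of 3.86%, and 1 of 177 D.1 cells, with 4.83%. These 2 clusterings used the same counts.

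Arginine synthesis had the largest ratio of the 9 pathways in the summed counts, with an interval that overlapped that of histidine. With cells thinned to 400 UMIs the order turned, at 2.55 for histidine and 2.27 for arginine. The arginine genes together had 1442 CPM in G.1 and 7260 in G.2, a log2 ratio of 2.33 (2.07 to 2.60), and all 6 measured genes were at least 2-fold higher. *ARG4*, argininosuccinate lyase, which makes arginine itself, had 14 UMIs in G.1 and 128 in G.2 (2.87), beside the 48 and 433 of *ARG1* (2.85). *ARG3*, ornithine carbamoyltransferase, had 8 and 53 UMIs (2.41), and *ARG7*, the ornithine acetyltransferase of the mitochondria, 11 and 49 (1.83). *CPA1*, which acts in carbamoyl phosphate synthesis, was lowest in the pathway, at 20 and 50 UMIs. The intervals of *ARG1* (2.42 to 3.31) and *ARG4* (2.07 to 3.78), the last steps, lay above that of *CPA1* (0.23 to 1.83). Below the minimum, *ARG8* had 4 and 44 UMIs, *ORT1*, the carrier that takes ornithine out of mitochondria, 8 and 41, and *ARG5,6* 3 and 18.

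Histidine synthesis came next, with 944 CPM in G.1 and 4187 in G.2 (2.15, 1.82 to 2.49), and all 5 measured genes were at least 2-fold higher. *HIS4*, a single protein with 3 enzyme activities of the pathway, had 5 UMIs in G.1 and 78 in G.2 (3.64, 2.36 to 5.31), the highest ratio of any measured amino acid gene. *HIS2*, histidinol-phosphatase, had 8 and 57 UMIs (2.51), *HIS7* 12 and 64 (2.09), and *HIS1*, the enzyme of the first step, 26 and 124 (1.93). *HIS3*, which carries the partial deletion *his3Δ1* in this strain, had 31 and 174 UMIs (2.17). *HIS6* stood apart with 9 and 7 UMIs, under the minimum. The strain's other deleted genes, *LEU2*, *MET17* (*MET15*) and *URA3*, were not analysed here.

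For lysine synthesis the levels were 1442 and 4178 CPM (1.53, 1.26 to 1.82), and 4 of 5 measured genes were at least 2-fold higher. The ratio was highest for *LYS1*, which makes lysine in the last step, at 10 and 84 UMIs (2.75), followed by 1.85 for *LYS9*, 1.57 for *LYS12* and 1.41 for *LYS20*, a homocitrate synthase of the first step, with 52 and 172 UMIs. This is also their order from the last step to the first, but the intervals overlapped. *LYS21*, the other homocitrate synthase, had 28 and 62 (0.83). *LYS20* and *LYS21* are 95.3% identical over 90.2% of the length of *LYS20*, so how the counting shared reads between them is uncertain.

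Branched-chain synthesis took the most UMIs of the pathways in G.2, 14106 CPM against 4513 in G.1 (1.64, 1.49 to 1.80), and all 10 measured genes were at least 2-fold higher. The 2 highest ratios were those of *LEU1* and *LEU4*, of the leucine branch. *LEU1*, isopropylmalate isomerase, had 30 UMIs in G.1 and 207 in G.2 (2.47), and *LEU4*, isopropylmalate synthase, 26 and 161 (2.31). *OAC1*, the mitochondrial carrier that exports isopropylmalate, had 25 and 111 (1.83). In the part shared with isoleucine and valine, *ILV2* and *ILV6*, the catalytic and regulatory subunits of acetolactate synthase, had 14 and 73 UMIs (2.06) and 64 and 226 UMIs (1.50). *ILV1*, threonine deaminase, had a ratio of 1.77, *ILV3* 1.68, *ILV5* 1.37 with 183 and 590 UMIs, and the aminotransferases *BAT1* and *BAT2* 1.44 and 1.39. The intervals of *LEU1* (1.91 to 3.07) and *ILV5* (1.13 to 1.62) did not overlap.

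**Figure D2:**
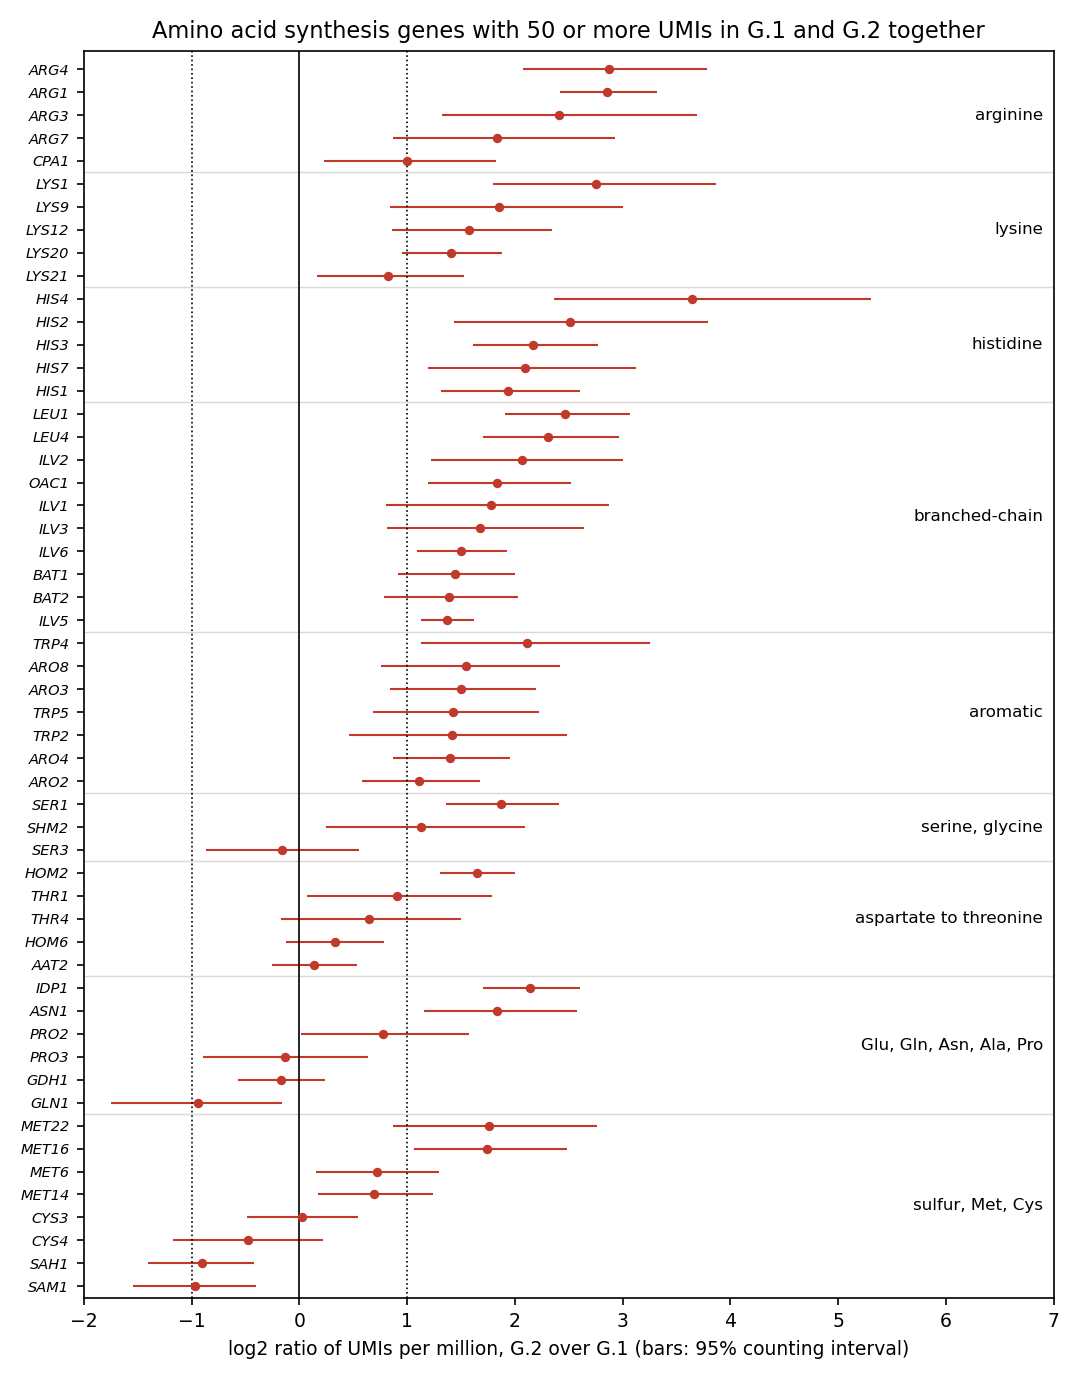
Points are the log2 ratios of CPM in G.2 over G.1 for all but 1 of the 55 measured amino acid synthesis genes, bars are 95% counting intervals, and dotted lines mark 2-fold either way. All measured arginine, histidine, branched-chain and aromatic genes lie at or right of 1, whereas the sulfur genes run from -0.97 for SAM1 to 1.76 for MET22.

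Aromatic synthesis had 2044 CPM in G.1 and 5134 in G.2 (1.33, 1.10 to 1.57). All 7 measured genes were at least 2-fold higher, within a narrow range of 1.11 for *ARO2*, chorismate synthase, to 2.11 for *TRP4*, anthranilate phosphoribosyltransferase, with 10 and 54 UMIs. *ARO3* and *ARO4*, which both catalyse the first step and differ in the amino acid that inhibits them, had 25 and 88 UMIs (1.49) and 39 and 128 UMIs (1.39). *ARO8*, an aminotransferase, had 17 and 62 (1.55), *TRP5*, tryptophan synthase, 20 and 67 (1.42), and *TRP2* 12 and 40 (1.42). *ARO7*, the chorismate mutase that opens the phenylalanine and tyrosine branch, had 17 UMIs in each, under the minimum.

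Serine and glycine synthesis and the path from aspartate to threonine each had 1 or 2 measured genes at least 2-fold higher. Serine and glycine synthesis had 1203 and 2608 CPM (1.12, 0.80 to 1.44). *SER1*, phosphoserine aminotransferase, had 39 and 178 UMIs (1.87) and *SHM2*, cytosolic serine hydroxymethyltransferase, 15 and 41 (1.13). *SER3*, phosphoglycerate dehydrogenase of the first step, had 34 and 38 (-0.16). From aspartate to threonine the levels were 3060 and 5773 CPM (0.92, 0.72 to 1.12), and 1 of 5 measured genes was at least 2-fold higher. That gene was *HOM2*, aspartate semialdehyde dehydrogenase, with 89 and 348 UMIs (1.65). Its pathway partners had ratios of 0.90 for *THR1*, 0.64 for *THR4*, 0.33 for *HOM6* and 0.14 for the aspartate aminotransferase *AAT2*.

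For glutamate, glutamine, asparagine, alanine and proline the levels were 3102 and 5599 CPM (0.85, 0.65 to 1.05), with 2 of 6 measured genes at least 2-fold higher. *IDP1*, the mitochondrial isocitrate dehydrogenase that makes 2-oxoglutarate with NADPH, had 50 and 275 UMIs (2.14), and *ASN1*, an asparagine synthetase, 22 and 98 (1.83). The enzymes that take up ammonium did not share this: *GDH1*, glutamate dehydrogenase, had 100 and 111 UMIs (-0.17), and *GLN1*, glutamine synthetase, 37 and 24 (-0.95, -1.75 to -0.17). The proline enzymes *PRO2* and *PRO3* had ratios of 0.77 and -0.13.

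Sulfur assimilation with methionine and cysteine synthesis had the smallest ratio, 4575 and 5682 CPM (0.31, 0.14 to 0.49), with 2 of 8 measured genes at least 2-fold higher. It was split by step. *MET16*, which reduces activated sulfate, had 22 and 92 UMIs (1.74), and *MET22*, the phosphatase that removes the nucleotide left by that reaction, 13 and 55 (1.76). *MET14*, the kinase before *MET16*, had 46 and 93 (0.69), and *MET6*, methionine synthase, 40 and 82 (0.72). Beyond methionine, *SAM1* and *SAH1* were lower in G.2, while *CYS4* and *CYS3* lay closer to an equal level. *SAM1*, an S-adenosylmethionine synthetase, had 69 and 44 UMIs (-0.97, -1.55 to -0.40), *SAH1*, S-adenosylhomocysteine hydrolase, 90 and 60 (-0.91, -1.40 to -0.42), *CYS4* 39 and 35 (-0.48) and *CYS3* 59 and 75 (0.03). Below the minimum, *SAM2*, the other S-adenosylmethionine synthetase, had 34 and 7 UMIs, and *MET10*, a subunit of sulfite reductase, had 6 and 40. *STR2*, of the same list, had 6 and 39.

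**Figure D3:**
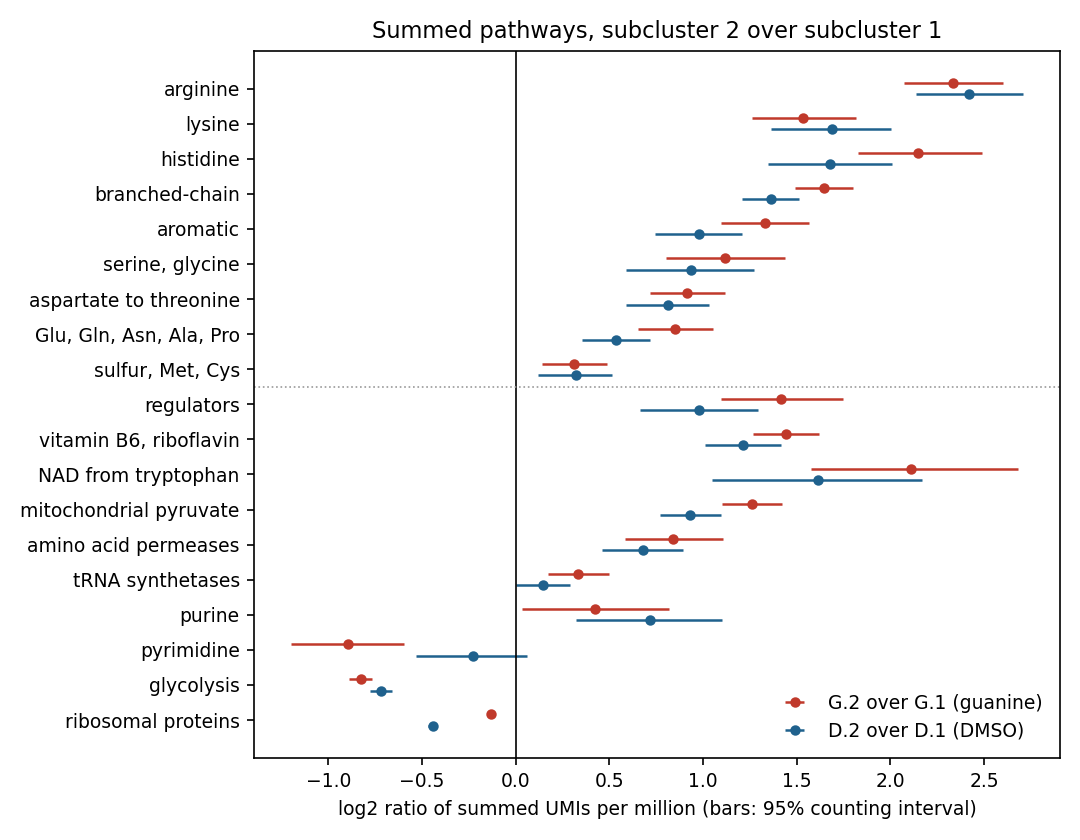
Points are log2 ratios of the summed CPM of a list in subcluster 2 over subcluster 1, in the Guanine library (red) and the DMSO library (blue), bars are 95% counting intervals, and the dotted line parts amino acid pathways from other lists. In the Guanine library the pathways run from 2.33 for arginine to 0.31 for sulfur, and in the DMSO library from 2.42 to 0.32.

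The DMSO library, which shares no cells with the Guanine library, was split by the authors in the same manner. Its labels were thus also made from the counts of its own cells, and its differences are a description too. Between D.2, with 56 cells, and D.1, with 177, amino acid synthesis differed by a log2 ratio of 1.03 (0.96 to 1.10), at 35984 and 17620 CPM. Of 45 measured list genes 25 were at least 2-fold higher in D.2 and 0 at least 2-fold lower, beside 7.38% higher and 5.46% lower over all 1044 measured genes. Of the 42 list genes measured in both libraries, 25 were at least 2-fold higher in both. The share over all genes measured in both was not counted, so nothing is read from this overlap. The pathway ratios were 2.42 for arginine, 1.69 for lysine, 1.68 for histidine, 1.36 for branched-chain, 0.98 for aromatic, 0.93 for serine and glycine, 0.81 for aspartate to threonine, 0.54 for the glutamate group and 0.32 for sulfur. In the summed counts arginine stood highest and sulfur lowest in either library, although histidine was above arginine in thinned Guanine cells, and the intervals of the libraries overlapped for all 9 pathways, least for branched-chain synthesis (1.49 to 1.80 and 1.21 to 1.51). For all amino acid synthesis genes summed, the intervals of the libraries did not overlap (1.22 to 1.36 and 0.96 to 1.10). The difference between the libraries was not tested. In D.2, 7 of the 56 cells held over 10% of their UMIs on 1 gene and at most 0.939% on amino acid genes, and without such cells the DMSO ratio was 1.18. D.2 cells reached a median share of 3.47%, below the 5.39% of G.2, and 6 of 56 lay above the G.2 median.

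**Figure D4:**
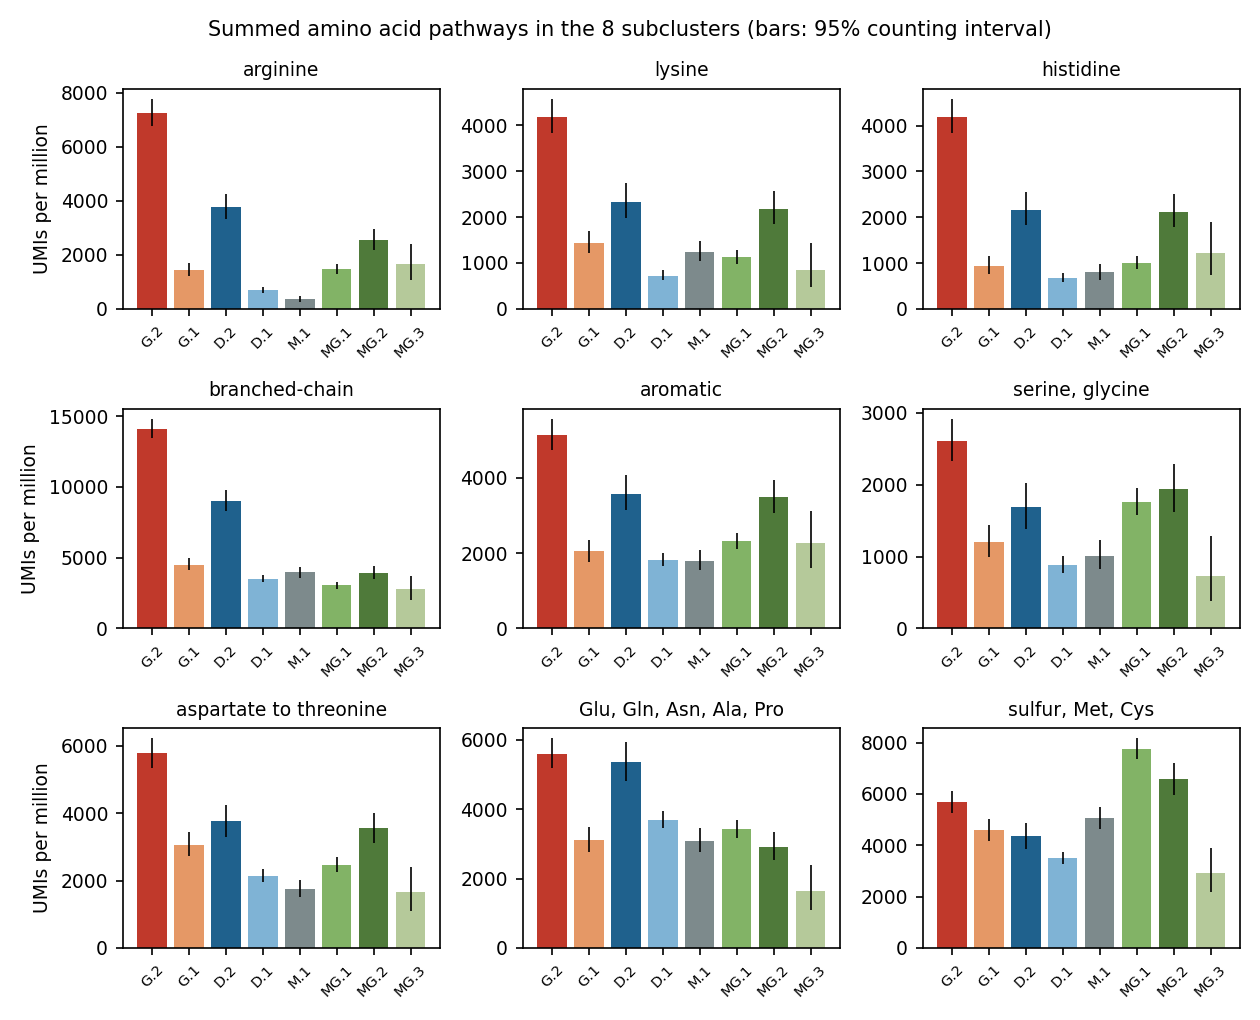
Bars are the summed CPM of each of the 9 amino acid pathways in the 8 subclusters, each panel with its own scale from 0, and lines are 95% counting intervals. G.2 is the highest bar in 8 panels, and in the sulfur panel MG.1 (7756) and MG.2 (6561) are above G.2 (5682).

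Across the 8 subclusters G.2 held the highest level of 8 of the 9 pathways. Arginine genes had 7260 CPM in G.2, 3774 in D.2, 2556 in MG.2 and 360 to 1649 in the others, with M.1 lowest. For branched-chain genes the order was G.2 (14106), D.2 (8989) and then G.1 (4513), and the rest were between 2749 and 3960. The sulfur pathway was the exception, with 7756 in MG.1 and 6561 in MG.2 against 5682 in G.2. In the glutamate group G.2 (5599) and D.2 (5351) were within each other's counting intervals. All these cells were clustered on the same counts, and the order is a description of 4 libraries.

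The regulators of these pathways were sparse. *GCN4* had 37 UMIs in G.1 and 127 in G.2 (1.46, 0.92 to 2.03), and *PCL5*, a cyclin needed for the breakdown of Gcn4, had 28 and 112 (1.68, 1.07 to 2.33). Gcn4 is set mainly by translation, which UMIs do not measure. Of those below the minimum, *LYS14* had 4 and 35 UMIs, *ARG80* 4 and 24, *GCN2* 0 and 10, *MET4* 9 and 13, *MET32* 10 and 11 and *MET31* 12 and 15. For *LYS14*, which activates lysine genes, and *ARG80*, which acts on arginine genes, the ratios were 2.81 and 2.26. For the sulfur regulators *MET4* (-1.13 to 1.62), *MET31* and *MET32* (-1.56 to 1.21) no difference was detectable at this depth. *LEU3*, *ARG81*, *ARG82*, *CBF1* and *BAS1* were listed at 0 in both.

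Some genes outside amino acid synthesis with links to it were at least 2-fold higher as well, beside 13.2% of all 748 measured genes. Few genes of each list were measured, and nothing is read from these counts. Vitamin B6 and riboflavin genes had 3610 CPM in G.1 and 9794 in G.2 (1.44), with 4 of 6 measured genes at least 2-fold higher. Pyridoxal phosphate, made from vitamin B6, is the cofactor of aminotransferases. *SNO1* had 12 and 72 UMIs (2.26) and *SNZ1*, with which it makes pyridoxal phosphate, 95 and 521 (2.13), whereas *RIB4* of the riboflavin pathway had 81 and 97 (-0.06). *BNA1*, of NAD synthesis from tryptophan, had 20 and 151 UMIs (2.60) and was the 1 measured gene of its list. Of the genes for mitochondrial pyruvate entry, which supplies the branched-chain pathway, 2 of 4 were at least 2-fold higher, with 233 and 860 UMIs for the carrier subunit *MPC2* (1.56) and 35 and 63 for *PDB1* (0.53), the lowest. Among amino acid permeases 2 of 5 were at least 2-fold higher. They were *BAP2*, for branched-chain amino acids, with 13 and 78 UMIs (2.26) and *SAM3*, for S-adenosylmethionine, with 14 and 59 (1.75), and the lowest was *MUP1*, for methionine (0.58).

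The 18 tRNA synthetases of the list, which use the amino acids, together had 5250 and 6612 CPM (0.33). Of 10 measured, 1 was at least 2-fold higher, *CDC60* for leucine with 11 and 45 UMIs (1.71), and *SES1* for serine was lowest at -0.44. Of all 748 measured genes, 13.2% were at least 2-fold higher. The list of tRNA synthetases is not complete. *YDR341C*, the arginyl-tRNA synthetase, is not in it and was named after its values were seen, with 11 UMIs in G.1 and 59 in G.2 (2.10, 1.16 to 3.18). Purine synthesis had 923 and 1238 CPM (0.42, 0.03 to 0.82), with *ADE12* at 1.38 and *ADE8* at 0.47. GMP synthesis and guanine salvage had 882 and 914 CPM (0.05, -0.37 to 0.48), so a difference was not detectable at this depth. Pyrimidine synthesis was lower in G.2, 1288 against 2397 CPM (-0.90), and most of that was *URA1*, dihydroorotate dehydrogenase, with 120 UMIs in G.1 and 36 in G.2 (-2.06), while *URA5* was at 0.43.

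Glycolysis and fermentation stood at 54487 CPM in G.1 and 30720 in G.2 (-0.83, -0.89 to -0.77). Over all 748 measured genes, 13.2% were at least 2-fold higher, 3.74% were at least 2-fold lower, and 381 had a ratio below 0. The counts of list members here are given beside these shares, and nothing is read from them. Of 11 measured glycolysis genes 0 were at least 2-fold higher and 4 at least 2-fold lower, and all 11 had a ratio below 0. The 4 were *TDH2* with 277 and 111 UMIs (-1.64), *ADH1*, the main alcohol dehydrogenase, with 642 and 345 (-1.22), *GPM1* with 205 and 116 (-1.14) and *ENO2*, enolase, with 751 and 445 (-1.08). *TDH3*, with the most UMIs, had 1432 and 1193 (-0.58), and *PGI1* was highest at -0.20. *TDH2* and *TDH3* are 95.8% identical and *ENO1* and *ENO2* 94.9%, so how the counting split them is uncertain. In the DMSO library glycolysis had a ratio of -0.72 (-0.78 to -0.66). Ribosomal protein genes took 38.0% of UMIs in G.1 and 34.7% in G.2 (-0.13), with 0 of 127 measured genes 2-fold away. Core histone genes, which are transcribed in S phase, had a ratio of -0.30, from -0.95 for *HTA2* to -0.02 for *HHT2*, with 0 of 7 past 2-fold. General stress genes had 612 and 598 CPM, and 0 of them was measured.

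Among all 748 measured genes, the 10 highest ratios were *NOP19* (4.07), *SWF1* (3.82), *HIS4* (3.64), *TMT1* (3.45), *YIL165C* (3.32), *REE1* (3.17), *ADH5* (2.92), *ARG4* (2.87), *ARG1* (2.85) and *CIA2* (2.79). *TMT1* methylates an intermediate of leucine synthesis and had 9 UMIs in G.1 and 123 in G.2, from 63 cells. *NOP19*, a ribosome biogenesis factor, had 3 and 63 UMIs, and in DMSO 23 in D.1 and 11 in D.2 (0.83, -0.35 to 1.92). *ADH5*, a minor alcohol dehydrogenase, had 11 and 104 UMIs, whereas *ADH1* was lower in G.2. *REE1*, a cytoplasmic protein with a role in the regulation of enolase, had 12 and 135, and *CIA2*, of cytosolic iron-sulfur assembly, 6 and 52. *YIL165C*, with 4 and 50 UMIs, lies 9 bases from *NIT1* on the same strand, which had 2 and 28.

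Some genes high in G.2 lie beside amino acid or vitamin genes, and whether the counting used strand is not stated in the sources used here, so reads of neighbours that face each other cannot be told apart. *SWF1*, a palmitoyltransferase with 3 and 53 UMIs, lies on the same strand as its neighbour *ARO1* and does not face it. It ends 239 bases before *ARO1*, which has a TGACTC 218 bases before its own start and had 3 and 18 UMIs. Chosen after their values were seen, *CTF13* faces *SNO1* at 23 bases, with 9 and 69 UMIs, and *MTG1* faces *SNZ1* at 122 bases, with 68 and 321. In the same way *YSC83* faces *ARG4* at 159 bases, with 4 and 30 UMIs.

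The 10 lowest ratios were those of *CWP2* (-3.04), *YHR095W* (-2.09), *URA1* (-2.06), *MTC7* (-2.01), *OPI3* (-1.96), *HBN1* (-1.96), *IDH2* (-1.88), *TDH2* (-1.64), *PUN1* (-1.58) and *NUG1* (-1.51). *CWP2*, a major mannoprotein of the cell wall, had 66 UMIs in G.1 and 10 in G.2. *OPI3*, which methylates phosphatidylethanolamine to phosphatidylcholine with S-adenosylmethionine, had 181 and 58. *IDH2*, a subunit of the NAD-dependent isocitrate dehydrogenase of the citric acid cycle, had 50 and 17 UMIs, and its partner *IDH1*, named after its values were seen, 50 and 30 (-1.06), against the 50 and 275 of *IDP1*. *CAR1*, arginase, which breaks arginine down and was also named after its values were seen, had 58 and 29 UMIs (-1.32), against 48 and 433 for *ARG1*. The places of *YHR095W* and *MTC7* rest on 1 cell of G.1, which held 105 of the 147 UMIs of *YHR095W* and 186 of the 277 of *MTC7* there. Without that cell the ratios were -0.30 and -0.41, within 2-fold. Both are among 4 genes that take over 10% of the UMIs of single cells in other subclusters, and in the DMSO library they were higher in D.2 than in D.1, by log2 ratios of 5.39 and 1.89.

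**Figure D5:**
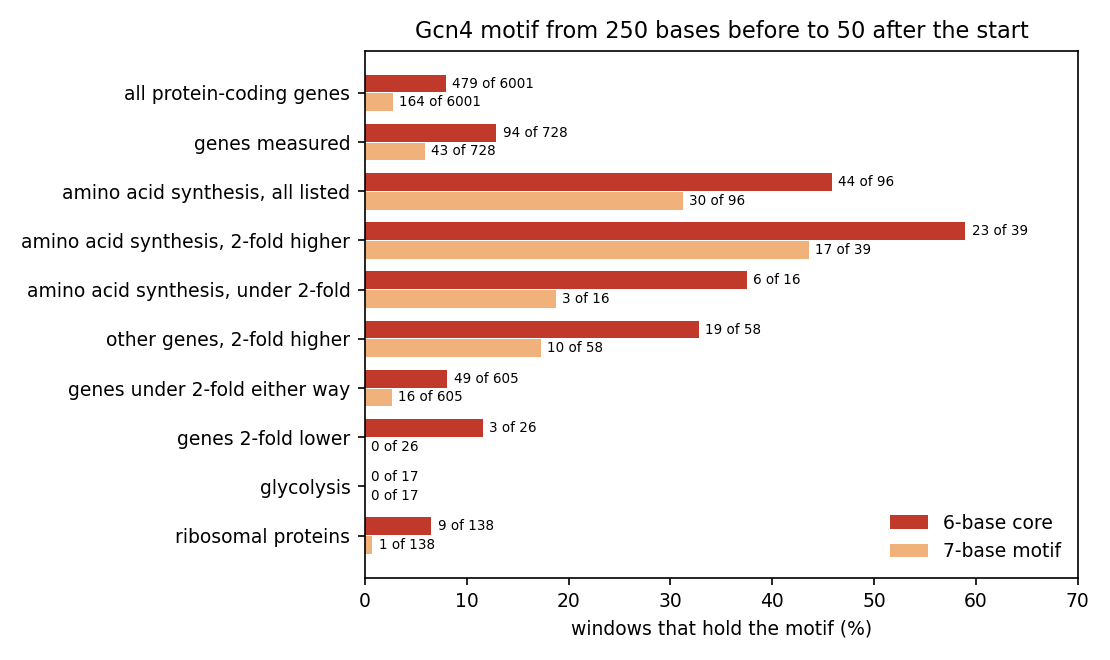
Bars are the percentage of genes with the 6-base core TGACTC (dark) or the 7-base form TGACTCA (light) on either strand, from 250 bases before to 50 after the start codon, with the number of genes beside each bar. The core is in 23 of 39 amino acid synthesis genes that were at least 2-fold higher, 6 of 16 that were not, and 479 of 6001 protein-coding genes.

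The windows of 300 bases around the start codon, from 250 before to 50 after it, were searched for TGACTC on both strands. It was found in 479 of 6001 protein-coding genes (7.98%) and in 94 of the 728 measured genes that matched RefSeq (12.9%). Of the 96 amino acid genes, 44 (45.8%) had it. Of the 39 that were at least 2-fold higher in G.2, 23 (59.0%) had it, as did 6 (37.5%) of the 16 that were not. Outside the list, it was in 19 of 58 genes at least 2-fold higher (32.8%), in 43 of 589 between the limits (7.30%) and in 3 of 26 at least 2-fold lower (11.5%). Among the pathways, it was in 6 of 7 histidine, 6 of 10 arginine, 6 of 12 branched-chain and 4 of 9 lysine genes. The core was in 4 of 7 genes from aspartate to threonine, 4 of 7 for serine and glycine and 5 of 14 aromatic genes. It was in 5 of 11 genes of the glutamate group and 4 of 19 sulfur genes, and none of the 17 glycolysis genes had it. These shares did not follow the order of the pathway ratios. Purine genes, whose ratio was 0.42, had the core in 7 of 10 cases but the longer TGACTCA, which contains it, in 1. Serine and glycine genes had the longer form in 0 of 7 cases. The longer form was in 164 of all genes (2.73%) and in 17 of the 39 (43.6%). *ARG1* had no match in the window, and its 2 matches within 500 bases lie 269 and 340 bases before the start. *GCN4*, *PCL5*, *NOP19*, *REE1* and *CIA2* had none in the window. A match is a string of letters and says nothing about whether Gcn4 was bound there in these cells.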

How the data were processed

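One yeastDrop-Seq library was analysed for each of 4 conditions. Per the study's methods, the authors trimmed reads with Trimmomatic, aligned them to R64-1-1 with STAR, counted UMIs with UMI-tools, removed cells by UMIs and genes with scater, and made the subclusters with SC3. The deposited values are whole UMI counts per gene and cell, not normalized, in 1 matrix of 4777 genes and 844 cells, with the labels of the authors' clusters in another table. Low quality features were filtered as well, and no threshold for genes is given in the sources used here. No gene with UMIs in a library lacked a cell that held 2 or more of them.

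UMIs were summed per subcluster, scaled to CPM and compared without a pseudocount. Genes with at least 50 UMIs in the 2 subclusters together entered, and a log2 ratio of 1 was the limit. With 1 library and labels made from the same counts, no test was run. The members and gene lists were chosen with earlier results of these data known. The text names the 2 markers, the measured genes of each amino acid list (1 of them, and 1 sequence, are not reported here), the 10 highest and 10 lowest ratios, the extreme measured members of other lists, regulators, and genes deleted in the strain. Intervals are exact, at 95%, and cover counting error only. They held the true ratio for 96.4% of 748 genes in simulated counts with 200 changed genes, whose medians were 1.01 and -0.97 for true values of 1 and -1. The simulated counts were Poisson, as the intervals assume, so this checks the calculation only. It does not cover the spread between cells. Depth was 120378 UMIs in G.2 and 96390 in G.1.

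Names, coordinates and sequences came from RefSeq R64, the authors' assembly, and 4606 of 4777 genes matched. Near-identical copies had at least 90% identity over 50% of their length in blastn 2.17.0+. TMM used edgeR 4.0.16 (R 4.3.3), doublet calls came from Scrublet in scanpy 1.11.5, and the rest from python 3.11.15 with numpy 2.4.6, pandas 2.3.3 and scipy 1.17.1. Results were repeated with TMM, with totals that omit ribosomal protein genes, with means over cells, with other minimum counts, with cells thinned to 400 UMIs, without shallow cells, deep cells, doublet calls or the study's markers, and with other motif windows.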

Additional observations from a re-analysis of the deposited data

How the results depend on the processing

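The ratio of all amino acid synthesis genes between G.2 and G.1 was 1.29. It was 1.15 with TMM, 1.21 with totals that omit ribosomal protein genes, and 0.38 without genes of the published marker lists of G.1 and G.2. Those markers were picked on these cells, and leaving them out removes genes for being high. Without them the pathway ratios were 1.13 for arginine, 1.11 for lysine, -0.68 for histidine, where only *HIS6* is then left, -0.0074 for sulfur, 0.43 for aspartate to threonine, 0.50 for serine and glycine and 0.086 for the glutamate group, and 6 of 22 measured genes were past 2-fold in place of 39 of 55. Thinning cells to 400 UMIs gave 2.55 for histidine and 0.63 for the glutamate group. Without the markers branched-chain synthesis, at 1.77, stood above arginine. Branched-chain and aromatic synthesis stayed within their counting intervals under every alternative run.

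Of 748 genes, 99 were past 2-fold higher and 28 lower. With at least 20 UMIs these were 272 and 98 of 1790, and with at least 100 they were 40 and 14 of 357. The lower genes were 45 with TMM, 44 without the doublet calls and 59 in thinned cells, where the split was 124 higher and 59 lower. Scrublet called 33 of 123 G.2 and 21 of 135 G.1 cells. Amino acid genes past 2-fold higher were 20 of 28 with at least 100 UMIs. Those past 2-fold lower, 0 in the values reported, were 3 with TMM, 2 with totals that omit ribosomal protein genes, 2 without doublet calls, 2 in thinned cells, and 1 each with means over cells, without cells under 400 UMIs, without the deepest 5% of cells and with at least 20 UMIs. The fixed 2-fold limit lies close to *SAM1*, *GLN1* and *SAH1*.

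In the DMSO library the ratio of 1.03 was 1.13 with totals that omit genes dominating single cells. Without the cells that these genes dominate, a setting chosen after the data were seen, it was 1.18. TGACTC was in 7.98% of all genes and 52.7% of measured amino acid genes. In the bases before the start alone it was in 6.25% of all genes, and TGACTCA was in 2.73% and 36.4%. In 500 bases before the start, a window added after seeing the data, the core was in 12.7% and 69.1%. In all, 134 of the 170 repeats of these results kept their value within the counting interval or, for counts, within 1.5 times, and 1 value past the limit, histidine without the markers, changed sign, as did the smaller ratio of sulfur there. No paired analysis was possible because each condition had 1 library.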
